A study of Mus musculus with 2 samples.

Results

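Themis, Themis2 and Themis3, the members of a small gene family, and Ptprk, the gene next to Themis, were examined in maps of H3K9me2 from activated mouse B cells. They make up 4 of the 21774 protein-coding genes of the RefSeq annotation of mouse build GRCm38.p6, the assembly behind mm10. They were chosen by the number of H3K9me2 peaks in Themis, which an earlier reading of the same lists had shown to be high for a T cell gene, together with its paralogues and its neighbour. The peak numbers of the 4 genes are therefore given as a description. The data were 1 CUT&Tag library from cells of a Jmjd1c B cell knockout (jmjd1c B KO, called KO here) and 1 from wild-type cells (WT), both of the C57BL/6 strain. In CUT&Tag an antibody guides a transposase that cuts and tags DNA next to the marked chromatin. Jmjd1c belongs by its jumonji domain to a family with H3K9 demethylases among its members, and the libraries compare the mark in B cells with and without it. The activating agent, the age of the mice, the Cre driver and whether mice were pooled are not given in the sources used here.

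H3K9me2, histone H3 dimethylated on lysine 9, is a mark of repressed chromatin that often spreads over long, silent stretches of the genome. Themis is a cytoplasmic protein of T cells and thymocytes that binds the adaptor Grb2 and acts in the selection of thymocytes. Themis2 is its paralogue in B cells and macrophages, and Themis3 is a further paralogue. Ptprk is a receptor-type tyrosine phosphatase that mediates adhesion between cells.

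The authors called broad peaks in each library on its own, from 34502392 tags in KO and 33474010 tags in WT, and listed 32149 KO and 31623 WT peaks on chromosomes 1 to 19, X and Y. With 1 library per genotype there is no replicate check, no difference was tested, and intervals are 95% intervals that cover counting error only. The peak caller extended tags to a modelled length, d, of 189 bp in KO and 292 bp in WT, so peak widths, pileups and q-values were compared within a library. Jmjd1c itself had no peak in either library, so the lists do not check the knockout. All 10 B cell marker genes examined were also without a peak, as were 16 of 17 T cell markers, and the last, Bcl11b, had 1 peak in WT. Most genes had none, since a peak was found in 9.90% of all protein-coding gene windows in KO and in 9.69% in WT, and the marker counts are near that share. Absence of this mark does not show expression, so the cell type was not checked by these lists.

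The starts of Themis and Ptprk are shown first, with that of Themis2, because KO peaks lay on the first pair and no peak lay on the last. Each line is the RefSeq promoter window of GRCm38.p6, 250 bases before the gene start and 50 after it, 5′ to 3′ on the gene's own strand, with bases under a KO peak in capitals. Themis lies on the plus strand (chr10:28668110-28668409), Ptprk on the plus strand (chr10:28074570-28074869) and Themis2 on the minus strand (chr4:132796315-132796614).
Themis: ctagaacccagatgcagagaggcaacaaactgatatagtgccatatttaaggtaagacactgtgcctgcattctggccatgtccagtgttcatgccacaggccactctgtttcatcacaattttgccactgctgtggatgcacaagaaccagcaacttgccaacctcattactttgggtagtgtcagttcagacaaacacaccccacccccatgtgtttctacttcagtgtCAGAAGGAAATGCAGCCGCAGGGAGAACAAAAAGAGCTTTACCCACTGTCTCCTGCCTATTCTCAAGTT
Ptprk: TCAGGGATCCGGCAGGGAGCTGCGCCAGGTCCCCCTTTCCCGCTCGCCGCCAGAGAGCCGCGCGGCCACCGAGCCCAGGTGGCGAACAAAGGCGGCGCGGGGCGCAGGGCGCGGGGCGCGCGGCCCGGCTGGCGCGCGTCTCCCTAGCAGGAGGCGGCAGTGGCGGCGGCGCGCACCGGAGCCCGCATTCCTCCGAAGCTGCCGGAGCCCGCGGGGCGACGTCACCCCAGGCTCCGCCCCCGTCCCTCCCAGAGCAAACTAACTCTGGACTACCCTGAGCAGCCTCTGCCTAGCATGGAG
Themis2: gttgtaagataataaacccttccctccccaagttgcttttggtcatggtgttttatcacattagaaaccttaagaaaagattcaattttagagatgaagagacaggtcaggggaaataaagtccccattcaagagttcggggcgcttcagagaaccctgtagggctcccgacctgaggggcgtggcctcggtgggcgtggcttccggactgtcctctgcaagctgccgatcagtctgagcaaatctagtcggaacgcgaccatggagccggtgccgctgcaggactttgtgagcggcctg

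At the Themis promoter a KO peak covered 69 of the 300 bases and a WT peak 43 of them, both at the 3′ end of the window. The KO peak spanned the gene start, and the WT peak began 7 bp after it. The gene table used here gives no exons or introns, so peaks inside genes are placed by position only. The promoter table lists a further Themis start slightly downstream, whose window was covered over 104 bases in KO and 78 in WT. At the Ptprk promoter the KO peak covered all 300 bases, whereas the WT peak covered none and began 206 bp after the gene start. The Themis2 window was free of peaks in both libraries. A peak over a promoter window was rare, found at 1.42% of 17492 protein-coding genes with a listed promoter in KO, 1.44% in WT and 0.800% in both. The letters of the windows also differ. Themis had 1 CpG and 47.3% G and C, Themis2 had 14 and 52.7%, and Ptprk had 38 and 75%, against a median of 13 and 56.3% over all listed promoters. The dinucleotide CG, which reads the same on both strands, occurred in 94.8% of these promoters. For Ptprk the WT peak, at 28075026 to 28076221, met 2 KO peaks, at 28074521 to 28075203 and 28075972 to 28076237. Both libraries thus had called signal at the first kilobase of Ptprk. The calls there differed in their edges and in their number, and the cause of the difference at the promoter was not tested.

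Themis (NCBI gene 210757) lies on chromosome 10 from 28668360 to 28883820, and its window, which adds 2 kb at either end, held 23 peaks in KO and 22 in WT. That is 105 peaks per Mb in KO (66.4 to 157, exact Poisson interval) and 100.2 in WT (62.8 to 152), with a KO to WT ratio of 1.05 (0.557 to 1.97). Over all protein-coding windows the density was 8.87 per Mb in KO and 8.71 in WT. Among the 2549 protein-coding windows that reach 100 kb in length, Themis ranked 2 by peaks per Mb in KO and 4 in WT. These ranks follow from the choice of the gene and are not evidence of their own. At least 1 peak in the window was found for 9.90% of protein-coding genes in KO, 9.69% in WT and 7.78% in both. Themis, Themis3 and Ptprk were among those with a peak in both, and Themis2 was in neither.

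Themis2 (NCBI gene 230787), on chromosome 4 from 132781843 to 132796364, had no peak in KO and none in WT. The window is short, and for 0 peaks the exact interval reaches 199 per Mb in either library, so the window alone cannot be told from the density of Themis. Its surroundings were empty as well. The gene with 1 Mb on both sides, 2.01 Mb in all, held 0 KO and 0 WT peaks. The nearest peak lay 4320 kb from the gene in KO and 4395 kb in WT.

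Themis3 (NCBI gene 74556), on chromosome 17 from 66554524 to 66594647, had 2 peaks in KO and 1 in WT. The KO peaks lay at 66565153 to 66565660 and 66581350 to 66581538, and the WT peak at 66579539 to 66580113. None of them overlapped, and the closest KO and WT peaks were 1.24 kb apart. The −log10 q of the KO peaks was 3.02 and 2.94, and that of the WT peak 2.49, near or below the middle of each list. The ratio of 2 (0.104 to 118) has no useful precision.

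Ptprk (NCBI gene 19272) spans 28074820 to 28597397 on chromosome 10. Its window held 27 peaks in KO and 31 in WT, or 51.3 per Mb (33.8 to 74.6) and 58.9 per Mb (40 to 83.6), a ratio of 0.871 (0.5 to 1.51). Peaks covered 1.95% of the window in KO and 3.06% in WT. In Themis they covered 3.9% in KO and 5.63% in WT. No peak was narrower than d, so WT peaks started from a larger minimum width. The KO minus WT difference in covered share was -1.73 percentage points at Themis and -1.11 at Ptprk, and adding the 103 bp by which d differed to each KO peak brought it to -0.646 and -0.578.

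**Figure D1:**
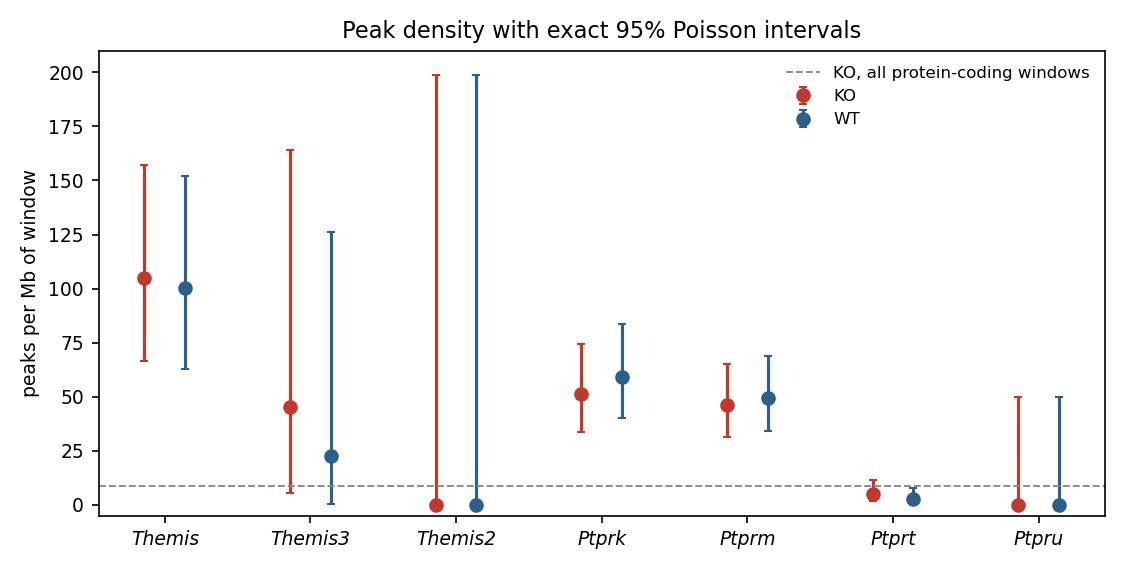
Peaks per Mb of the gene body with 2 kb flanks (y axis) for the Themis family and the R2B phosphatases, KO left of WT, with exact 95% Poisson intervals as bars and the KO density of all protein-coding windows as a dashed line. Themis stands at 105 and 100.2 per Mb, Ptprk and Ptprm between 46.3 and 58.9, and Themis2 and Ptpru at 0, the interval of Themis2 being wide because its window is short.

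Ptprk, Ptprm, Ptprt and Ptpru form the R2B group of receptor-type phosphatases, which have adhesive outer domains, and Themis and Themis3 each lie next to one of them. Ptprk ends 71 kb before Themis and Ptprm lies 72.2 kb from Themis3, in both cases with 0 protein-coding genes between. Themis2 has no such neighbour, as the nearest, Ptpru, lies 944 kb away with 21 protein-coding genes between. Ptprm had 32 KO and 34 WT peaks (46.3 and 49.2 per Mb), close to the density of Ptprk, and Ptpru had none in either library. Ptprt, a brain phosphatase of the same group, had 6 KO and 3 WT peaks in a window of 1143 kb (5.25 and 2.62 per Mb). At 45.3 per Mb in KO (5.49 to 164) and 22.7 in WT (0.574 to 126), the density of Themis3 was too imprecise to be set apart from that of Ptprm or of Themis.

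Of 20 receptor-type tyrosine phosphatase genes on the protein-coding list, 11 had a peak in KO (55%, against 9.90% of all protein-coding genes) and 10 in WT (50%, against 9.69%), with 127 and 120 peaks and a median of 3 and 1.5 per gene, against a median of 0 over all protein-coding genes. Both measures depend on window length, and these windows are long, 7.95 Mb for 20 genes against 1136 Mb for all 21774. Per Mb the list stood at 16 in KO and 15.1 in WT, against 8.87 and 8.71 over all protein-coding windows. Ptprk and Ptprm alone held 27 and 32 of its KO peaks and 31 and 34 of its WT peaks. Ptprk was chosen here with Themis, and the density of the list without Ptprk and Ptprm was not computed. The list as a whole is therefore not shown to be rich in peaks. Besides the R2B genes, Ptprn2 had 15 KO and 12 WT peaks, Ptprd 12 and 4, Ptprr 10 and 10, and Ptprg 9 and 9. Ptprq had 5 and 8, Ptprz1 5 and 6, Ptpro 4 and 3, and Ptprb 2 and 0. Per Mb the order differed, as Ptprd, in a window of 2275 kb, stood at 5.28 in KO and 1.76 in WT. Ptprr stood at 38.4 per Mb in both, Ptprz1 at 27.5 and 33, and Ptprq at 23.8 and 38.1. Ptprc, the leukocyte phosphatase CD45, had none in either library. The signalling partners of Themis had no peak either, since 0 of 22 T cell receptor signalling genes, among them the kinase genes Lck and Zap70 and the adaptor gene Grb2, had a peak in KO or in WT. With 9.90% of all protein-coding genes called in KO and 9.69% in WT, a count of 0 among 22 genes does not set the list apart. Of 15 B cell receptor signalling genes, 1 had a peak in each library. It was Inpp5d, which encodes an inositol phosphatase, and the peaks reached only the outer edge of its window, covering 0.023% of it in KO and 0.0173% in WT.

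The peaks of Ptprk ran on into Themis. From the start of Ptprk to the end of Themis, 809 kb, there were 58 peak midpoints in KO and 58 in WT (71.7 per Mb in both, 54.4 to 92.7). The 200 kb before Ptprk held 6 in KO and 4 in WT (30 and 20 per Mb), and the 200 kb after Themis held 6 and 6 (30 per Mb in both). Ptprk was cut at its middle into pieces of 261.3 kb, of which the one far from Themis had 10 KO and 15 WT midpoints (38.3 and 57.4 per Mb) and the one next to Themis 16 and 15 (61.2 and 57.4 per Mb). The 70.96 kb between the genes, which hold no protein-coding gene, had 9 KO midpoints (127 per Mb, 58 to 241) and 6 WT midpoints (84.6 per Mb, 31 to 184). Of the 107.7 kb pieces of Themis, the one next to Ptprk had 13 KO and 11 WT midpoints (121 and 102 per Mb), and the far one 10 and 11 (92.8 and 102 per Mb). The interval of the gap takes in both pieces of Themis in each library, so their order is not resolved by counting.

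**Figure D2:**
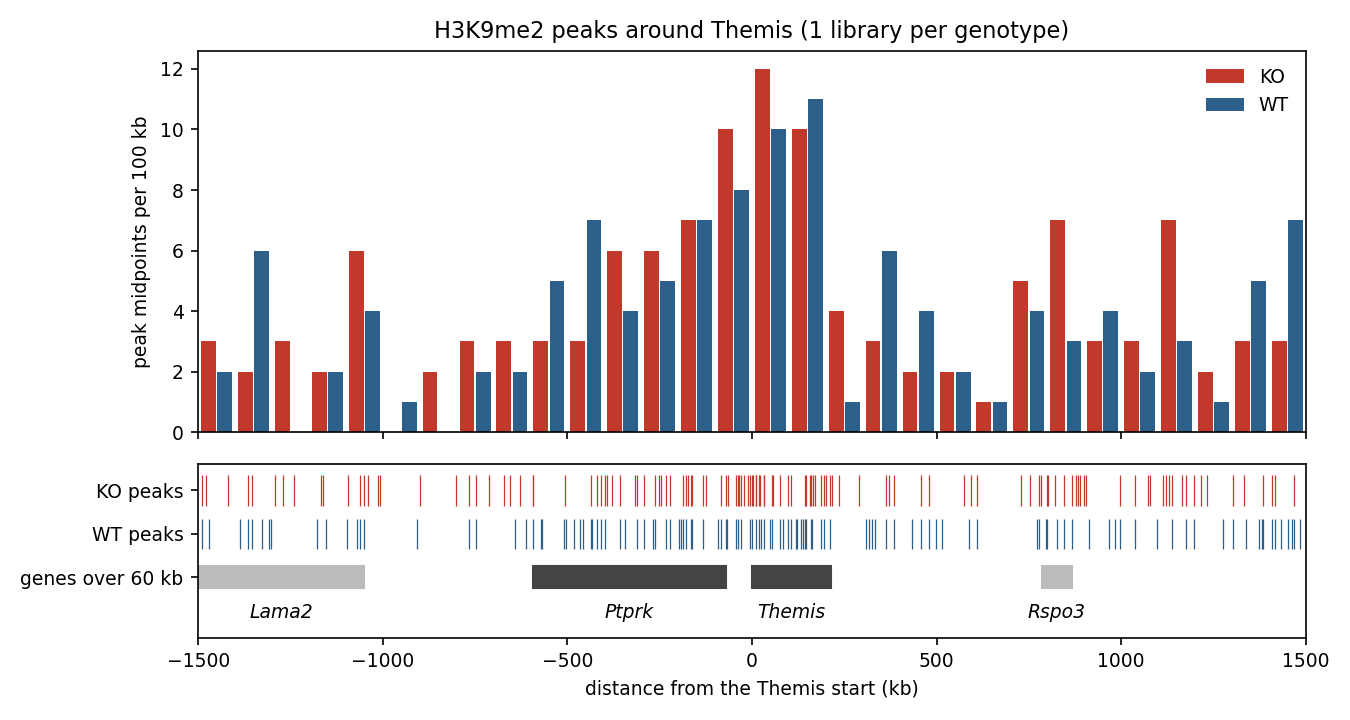
Upper panel, peak midpoints per 100 kb (y axis) against distance from the Themis start in kb (x axis), KO and WT side by side. Lower panel, each peak as a tick with genes over 60 kb as bars. The most populated bins, 12 in KO and 11 in WT, lie within Themis, and the bin that starts 200 kb after the Themis start falls to 4 in KO and 1 in WT.

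The start of Themis, its edge towards Ptprk, was not an edge in the peaks. The last KO peak before the Themis start was 4.63 kb away and the last WT peak 4.76 kb away, and these 2 peaks, outside the window of Themis, overlapped each other. After the Ptprk end the first peak came at 1.39 kb in KO and 1.12 kb in WT, and the peaks there overlapped too. Inside Ptprk peaks were sparser towards that end. The last one lay 12.8 kb before it in KO and 12.7 kb in WT, and the last 52.3 kb of the gene held 1 KO and 2 WT midpoints. At the other end of Themis the libraries parted. The last KO peak inside the gene ended 4.24 kb before the gene's end and the next lay 2.5 kb past it, only 501 bp outside the window. In WT the last one ended 3.37 kb before the gene's end, and the next lay 93.5 kb past it. Before the Ptprk start the nearest separate peak was 33.7 kb away in KO and 17 kb away in WT.

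Within Themis the peaks were spread over the whole gene. In 10 equal bins of 21.5 kb, numbered from the end next to Ptprk, KO had 5 peaks in bin 1, 0 in bin 6, and between 1 and 4 in each of the others. WT had 3 in bin 1, 4 in bin 7, and 1 or 2 in each of the others. Bin 6, with 0 KO and 2 WT peaks, was the only bin of Themis that lacked a peak in 1 of the libraries. In Ptprk, with bins of 52.3 kb, bin 8 had 0 KO and 3 WT peaks, and all other bins had at least 1 in each. Peak-free stretches between peaks of the gene had a median of 6.03 kb in KO and 7.5 kb in WT.

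**Figure D3:**
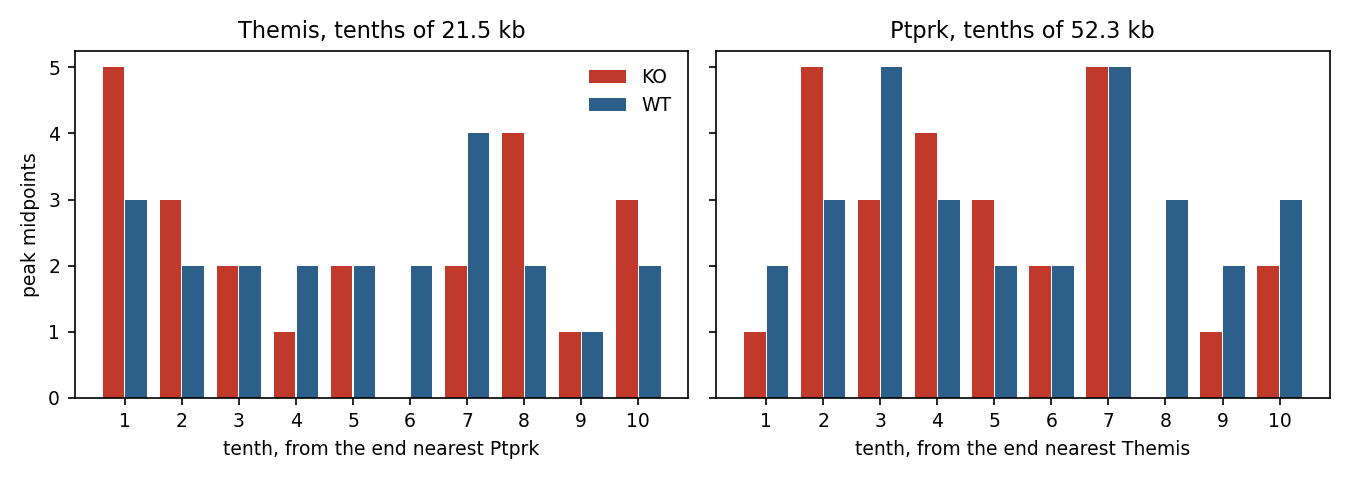
Peak midpoints (y axis) in 10 equal bins of Themis and of Ptprk (x axis), numbered from the end nearest the other gene, KO left of WT. KO has 0 peaks in bin 6 of Themis and in bin 8 of Ptprk, where WT has 2 and 3.

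The longest stretch without a KO peak in Themis was 37 kb, from 28774397 to 28811358. In it lay 4 whole WT peaks without a KO partner, at 28787658 to 28787974, 28790196 to 28790710, 28801328 to 28801985 and 28807049 to 28807571. Their −log10 q was 4.35, 2.44, 2.66 and 2.58, so 1 of them stood in the upper part of the WT list (percentile 78.3) and the other 3 low in it (11.1, 21.8 and 17.6). The longest WT gap, 25 kb from 28831006 to 28856039, held 2 KO peaks without a WT partner. Ptprk had a longer stretch of the same kind, 86.5 kb without a KO peak from 28076238 to 28162779, in which WT had 3 peaks. These stretches were picked after their values were seen.

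Peaks were matched one by one between the libraries. In the Themis window 13 of 23 KO peaks (56.5%, 34.5 to 76.8%, exact Clopper-Pearson interval) overlapped a WT peak by at least 1 bp, and 13 of 22 WT peaks (59.1%, 36.4 to 79.3%) overlapped a KO peak. All 13 pairs were one to one. Over the whole lists 45.9% of KO peaks and 46.4% of WT peaks were overlapped, and 45.3% and 46.0% were matched one to one, values that lie inside the intervals of Themis. In the Ptprk window 18 of 27 KO peaks (66.7%, 46 to 83.5%) and 17 of 31 WT peaks (54.8%, 36 to 72.7%) were overlapped. The pair at its start, 2 KO peaks on 1 WT peak, was the exception to one-to-one matching. In the gap between the windows, 4 of 8 KO and 4 of 5 WT peaks were overlapped.

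The matched Themis pairs were close in position. Their overlap had a median of 348 bp (130 to 823 bp), the midpoints lay a median of 101 bp apart (at most 266 bp), and in 7 of the 13 pairs the KO peak lay wholly within the WT peak. In Ptprk the pairs overlapped by a median of 223 bp, with midpoints a median of 119 bp apart. The 10 unmatched KO peaks of Themis lay from 0.123 to 7.95 kb from the nearest WT peak, 4 of them within 1 kb, and the 9 unmatched WT peaks from 0.579 to 15.8 kb from the nearest KO peak, 1 of them within 1 kb. Matched and unmatched peaks differed little in significance in KO, with a median −log10 q of 3.41 and 3.52. In WT the medians were 4.13 and 2.66, although an unmatched WT peak, at 28830658 to 28831005, had the second highest value there, 6.11. Ptprk did not share this contrast, with medians for matched and unmatched peaks of 3.1 and 4 in KO and 3.19 and 3.04 in WT.

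**Figure D4:**
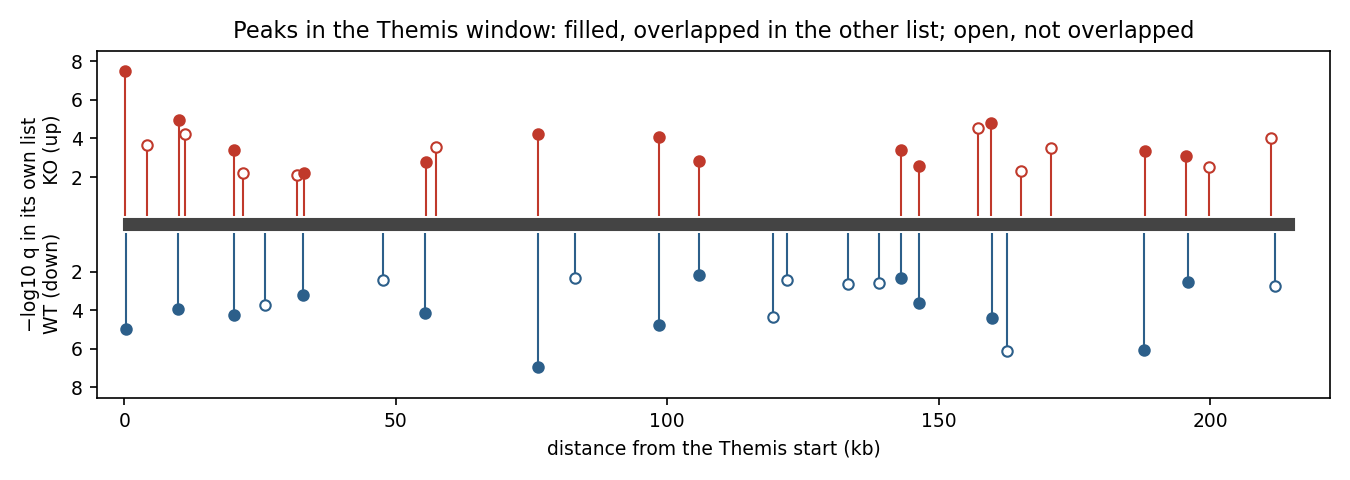
Each peak of the Themis window by its distance from the Themis start in kb (x axis) and its −log10 q in its own list (y axis, KO above the gene bar and WT below); filled points overlap a peak of the other library. KO has its highest value, 7.52, at the gene start, where WT has 5, and 4 open WT points lie in the middle of the gene where KO has none.

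The most significant KO peak of Themis was the one at its start, from 28668341 to 28668714, with a −log10 q of 7.52 (percentile 98.1 of the KO list) and a pileup of 37.4, the highest in the gene. It was followed by the peaks at 28678098 to 28678662 (4.96) and 28827841 to 28828039 (4.79). All 3 had a WT partner. In WT the leading peaks were at 28744406 to 28744780 (6.93), 28830658 to 28831005 (6.11) and 28856040 to 28856332 (6.05). The WT peak at the start, from 28668367 to 28668890, had a −log10 q of 5 (percentile 87). A q of 1e-05 or lower was reached by 1 KO peak (4.35%) and 4 WT peaks (18.2%) of Themis, against 8.10% of all KO and 13.0% of all WT peaks. The peak at the start of Themis was the only one of these sites that passed in both libraries. In Ptprk, 1 KO and 5 WT peaks passed, and the highest WT value of the gene, 8.77 at 28471293 to 28471644, belonged to a peak with no KO partner.

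Themis peaks had high pileups and low fold enrichments for their lists. Pileup, the depth of extended tags, had a median of 25.6 in KO, against 19.1 over the KO list, and of 35.1 in WT, against 25.3. It lay above its list's median for 21 of 23 KO and 20 of 22 WT peaks. Fold enrichment, in which the authors divide pileup by a local background, was low instead, with a median of 2.73 in KO (3.08 over the list) and 2.31 in WT (2.72), and lay below the list's median for 17 of 23 KO and 19 of 22 WT peaks. Pileup divided by fold enrichment approximates the background that the caller assumed at each peak. With no control library, that background was taken from the tags of the same library around the peak. It is therefore not independent of the mapped signal. In Themis its median was 9.62 in KO (percentile 86.9 of the KO list, whose median was 6.17) and 14.8 in WT (percentile 86.5, list median 9.31).

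The local background was higher within the locus than on both sides of it in both libraries. Its median was 4.71 in KO and 7.49 in WT over the peaks of the 500 kb before the Ptprk window. It was 7.81 and 11.1 in the piece of Ptprk far from Themis, 7.65 and 13.4 in the piece next to it, and 11.4 and 16.2 in the gap between the windows. After the Themis window it was 4.83 in KO and 7.22 in WT over 500 kb, below the median of each list. The values in the gap stood at percentile 94.6 of the KO list and 91.1 of the WT list. From the Ptprk start to the Themis end, 57 of 58 KO and 56 of 58 WT peaks lay above the median of their own list. Over Ptprk, Themis and the gap, in that order, median background was 7.65, 9.62 and 11.4 in KO. KO density in the same order was 51.3, 105 and 127 per Mb, and its step from Themis to the gap was not resolved by counting. In WT background was 12.6, 14.8 and 16.2, and density 58.9, 100.2 and 84.6 per Mb. For the gap, background was taken between the windows and density between the genes. Between the pieces of Ptprk, KO density was higher next to Themis at nearly equal background, and WT density was equal at a higher background. The part of local background in the peak numbers was not tested. Ptprm had a like background, with a median of 10.5 in KO and 17.8 in WT, and the Themis3 peaks 5.65 and 9.46. Local background was also high at single peaks outside this stretch, such as 1 in each library near the start of Soga3, with 10.3 in KO and 16.4 in WT.

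**Figure D5:**
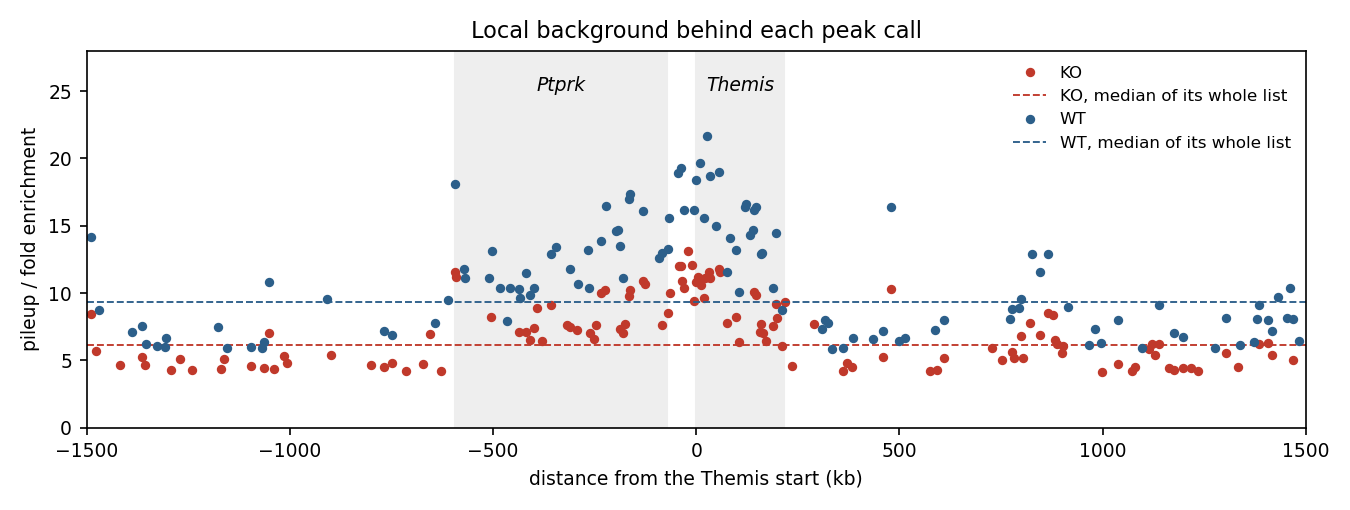
Pileup divided by fold enrichment (y axis) for each peak, against distance from the Themis start in kb (x axis); dashed lines are the medians of the whole KO and WT lists, and the gene bodies are shaded. Between the start of Ptprk and the end of Themis 57 of 58 KO and 56 of 58 WT points lie above their own line, and the highest are 13.1 in KO, in the gap between the genes, and 21.7 in WT, in Themis.

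Of the 16 other protein-coding genes within 2 Mb of Themis, 5 had a peak in KO and 5 in WT (31.2% each), 4 of them in both, against 9.90%, 9.69% and 7.78% of all protein-coding genes. Apart from Ptprk, these were the laminin gene Lama2 with 21 KO and 22 WT peaks (32.8 and 34.4 per Mb), Rspo3, which encodes a secreted activator of Wnt signalling, with 5 and 5 (57.6 per Mb in both), and Soga3 with 1 and 3. The predicted gene Gm30534 had 1 peak in KO only, and 2310057J18Rik had 2 in WT only. The other 10 had none, among them the Notch effector gene Hey2 and the RNA methyltransferase subunit gene Trmt11. Rspo3 and Ptprk came nearest to Themis in density among the neighbours with a peak in both libraries. The share of 31.2% depends on window length, and the 16 windows cover 1.89 Mb, against 1136 Mb for all 21774 genes. It also counts Ptprk, which was chosen with Themis.

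The genes most like Themis were sought among the 1975 other protein-coding genes whose window was 0.5 to 2 times as long, by the sum over the 2 libraries of the difference in peaks per Mb. The closest was Fshr, the receptor for follicle-stimulating hormone, with 22 KO and 19 WT peaks and a summed difference of 18.5 per Mb. Trpc6, a cation channel, had 13 KO and 12 WT peaks (27.6). Tmeff2, a transmembrane protein with follistatin-like domains, had 24 and 25 (36.4), and Adamts3, a procollagen-processing protease, had 18 and 18 (36.7). The likeness rests on peak numbers in 2 libraries only.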

How the data were processed

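H3K9me2 was mapped by CUT&Tag in 1 KO and 1 WT library, and the genotype label gave the groups. Alignment and trimming are not described beyond tool names: SAMtools 1.11, Bowtie2 2.4.2 and Trim Galore 0.6.6, with deepTools, HOMER, Picard, MACS2 and the build mm10, per the submitters' processing notes. Broad peaks were called per library by the authors, per the file headers, with MACS2 2.2.7.1 at q and broad cutoffs of 0.01, keeping duplicates, with no control library and a background window of 10000 bp. The deposited pileup is a coverage signal not scaled between libraries, significance is deposited as −log10 of the p-value and of the q-value, and fold enrichment is the authors' ratio to the local background. Kept duplicates and uncontrolled calling can leave regions in the lists that attract reads in any library.

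Python 3.11.15 with NumPy 2.4.6 and SciPy 1.17.1 was used. Of the gene table, 348 scaffold entries were left out. Strand came from the RefSeq promoter table, which lists 3 of the 4 members; of 21 phosphatase symbols 20 are protein-coding. Counting and matching were checked on simulated data. Named genes were the 4 members, coding neighbours within 2 Mb, list members with a peak and the 5 genes most like Themis; named peaks were the 3 of lowest q in each library and those at gene ends, and others were chosen after their values were seen. Of the 5 genes most like Themis, 1 is not reported here. The members and lists were chosen with earlier results of these data known. No reference sequence under the peaks was used here.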

Additional observations from a re-analysis of the deposited data

How the results depend on the processing

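Of 161 recomputed values, 118 kept within the limits set (for counts, 1.5 times) and 43 moved. Some of the 118 were counts of 0 that stayed at 0, such as those of Themis2. The KO to WT ratio of Themis peaks, 1.05, passed to the other side of 1 in 3 settings, with 0.833 when peaks within 5 kb were merged and the values given below for the stricter q and for width. Equal numbers of peaks, no flanks, 10 kb flanks and midpoints moved no count of Themis or Ptprk peaks beyond that. Leaving out pileups of 100 or more could not change these counts, because no peak of Themis or Ptprk reached that pileup. At a q of 1e-05 or lower Themis had 1 KO and 4 WT peaks (ratio 0.25) and Ptprk 1 and 5 (0.2). The share of Ptprk KO peaks in the piece next to Themis went to 0% there, on 1 peak, against 61.5% of all its KO peaks. At least 1 kb wide were 0 KO and 2 WT peaks of Themis (ratio 0) and 0 and 2 of Ptprk (ratio 0). Both limits act on values that depend on d, and the cause was not tested. With peaks within 5 kb merged, Themis had 15 KO peaks. The matched share of Themis peaks became 80% in KO when merged, 100% in KO (1 of 1 peak) and 25% in WT at the stricter q, and 0% in WT at 1 kb. The rank of Themis by peaks per Mb became 151 in KO and 7 in WT at the stricter q. Matching by reciprocal overlap, by 25% of a peak, by midpoints or with widened KO peaks stayed inside the counting interval. No paired analysis was possible because each genotype had 1 library, and leaving out a replicate was not possible either. With no replicates, differences of a few peaks cannot be resolved at this depth.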
